A study of Mus musculus with 24 samples.

Results

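Spp1 (osteopontin) and 9 further genes of bone cells were followed across 24 two-colour microarrays of mouse bone marrow. The genes were chosen by name: a probe belonged to the set when the array's gene name, or an older alias of it, was Spp1, Ibsp, Bglap, Alpl, Runx2, Acp5, Ctsk, Calcr, Oscar or Atp6v0d2. All 10 genes had a probe, of 27975 genes with a probe on the array, and 9 of the 10 passed the filter on dim signals and were tested among 24387 genes. Atp6v0d2 was well above background on 1 of 24 arrays and was not tested. The members stand for cells of the bone surface, whose RNA can be carried over when marrow is flushed from a bone.

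Bone is laid down by osteoblasts, which arise from stromal progenitors under the transcription factor RUNX2 and deposit a collagen matrix with osteopontin, bone sialoprotein and osteocalcin. It is resorbed by osteoclasts, large cells of the monocyte lineage that acidify a sealed space against the bone and digest the matrix with proteases. Osteopontin is a secreted phosphoprotein that binds integrins and CD44. It is made by osteoblasts and osteoclasts and also by macrophages, and in marrow it is known as a component of the haematopoietic stem cell niche.

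Marrow came from female C57BL/6J mice aged 6 weeks, and per the labels each array carried a pool of 9. The mutant groups were double-null mice, labelled as lacking Cyp1b1 and Cyp1a1, 12 h after BP (2 arrays) or after oil (1 array), Cyp1a1-null mice 12 h after BP (3 arrays) or after oil (3 arrays), and Cyp1b1-null mice 12 h after DMBA (2 arrays) or after oil (2 arrays). The wild-type (WT) groups were taken 6 h after BP (2 arrays), 12 h after DMBA (3 arrays), 12 h after TCDD (3 arrays) or after oil, the vehicle (3 arrays). BP is benzo[a]pyrene. Like DMBA, which is dimethylbenz[a]anthracene, it is a polycyclic aromatic hydrocarbon oxidised by CYP1 enzymes. TCDD is a dioxin that activates AhR, the receptor these hydrocarbons bind, and resists metabolism. All 3 were injected intraperitoneally, at 50 mg/kg per the labels, a dose that is unusually high for TCDD and may be an error in the labels. The sample was labelled with Cy3 and a common reference, pooled marrow of oil-treated WT mice, with Cy5, with no dye swap. Values below are log ratios, log2(Cy3/Cy5), in which 0 means the level of the reference.

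The share of probes well above background ran from 38.8% to 85.0% of an array in Cy3 and from 46.2% to 87.8% in Cy5. WT oil replicate 1 stood apart: its log ratios had an SD of 1.26, against 0.20 to 0.67 on the other 23 arrays, and 7 of the 7 liver markers on the array were above background there. The log2 of their summed Cy3 signals was 16.24 on that array, against 10.01 and 9.51 on WT oil replicates 2 and 3. The median log ratio of these liver markers ran from -2.88 to -0.11 over the WT oil arrays, below the level of the Cy5 reference. WT oil replicate 1 also differed in Cy5 for other genes. Relative to each array's 75th percentile of processed signals, Runx2 read -3.55 there in Cy5, Acp5 3.01 and Alpl 2.60. On replicates 2 and 3 Cy5 read 0.03 and 0.84, 0.32 and 1.18, and 0.96 and 0.61. Cy3 read 0.69, 1.23 and 1.77 on replicate 1, against 0.03 to 0.64, 0.51 to 1.32 and 1.01 to 1.44. Changes against WT oil that passed the test are therefore given with this array and without it. Neutrophil and erythroid markers were above background on every array (8 of 8 of each list), as were at least 6 of 7 B-lineage markers. Cyp1a1 was below background on the arrays of both Cyp1a1-null groups and of both double-null groups, with log ratios of 1.82 in WT marrow after BP, 1.87 after DMBA, 0.63 after TCDD (0.15 to 1.55, above background on 2 of 3 arrays) and 0.13 after oil. In Cyp1b1-null marrow it averaged 0.14 after DMBA and was below background on both oil arrays. On both Cyp1b1-null DMBA arrays the dimmest spots were raised (5th percentile of log2 Cy3 8.17 and 8.73), which compresses log ratios of dim genes. The same held for TCDD replicates 1 and 2 (7.84 and 9.13), where Cyp1a1 read 0.18 and 0.15, against 1.55 on replicate 3 (5.97). These ratios therefore cannot show whether Cyp1a1 rose less after DMBA in Cyp1b1-null than in WT marrow. The Cyp1b1 probe gave signal on all arrays labelled Cyp1b1-null or double-null (mean log ratio 0.80 in Cyp1b1-null oil and 1.57 in double-null oil, against 0.16 in WT oil). The sources used here do not give where this probe lies relative to the deletion, so it checks nothing, and the groups are named as labelled.

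Collagen genes of osteoblasts were detected in this marrow: Col1a1 was above background on 24 arrays and Col1a2 on 23. So were Sparc and Ifitm5 (23 arrays each), and the osteoclast factors Nfatc1 (24 arrays) and Ocstamp (24 arrays). Markers of osteocytes, the cells buried in bone, were mixed: Sost was above background on 23 arrays and Mepe on 22, but Dmp1 on 6 and Phex on 1. Sp7, a factor of committed osteoblasts, was above background on 17 arrays and Msx2 on none. In bulk RNA, fewer cells of a type and less RNA per cell cannot be told apart.

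The promoters of 3 members carry the core motif of RUNX factors, which regulate osteoblast genes, and are printed because RUNX2 is itself a member. RefSeq (GRCm38.p6) gave a window of 250 bases before the transcription start for 9 of the 10 members, all but Atp6v0d2, and more than 1 window for some. Both strands were searched for TGTGGT, which reads ACCACA on the other strand and stands in capitals. The windows are chr5:104434861-104435110 on the plus strand for Spp1, chr3:88384467-88384716 on the minus strand for Bglap and chr17:44814628-44814877 on the minus strand for Runx2, each written 5′ to 3′ toward the gene.
Spp1: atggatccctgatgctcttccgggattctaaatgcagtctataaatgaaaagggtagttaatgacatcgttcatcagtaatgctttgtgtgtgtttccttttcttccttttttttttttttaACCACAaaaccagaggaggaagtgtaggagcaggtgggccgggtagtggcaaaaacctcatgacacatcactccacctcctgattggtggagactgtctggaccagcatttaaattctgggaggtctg
Bglap: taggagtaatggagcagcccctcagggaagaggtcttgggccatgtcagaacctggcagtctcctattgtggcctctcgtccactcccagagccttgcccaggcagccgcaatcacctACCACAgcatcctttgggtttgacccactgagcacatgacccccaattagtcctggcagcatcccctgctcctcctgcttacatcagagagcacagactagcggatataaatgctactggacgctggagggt
Runx2: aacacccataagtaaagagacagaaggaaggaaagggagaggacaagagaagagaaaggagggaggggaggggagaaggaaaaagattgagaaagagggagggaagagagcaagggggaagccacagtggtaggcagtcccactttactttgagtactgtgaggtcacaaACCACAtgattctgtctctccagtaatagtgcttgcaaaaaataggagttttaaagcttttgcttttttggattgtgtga

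The motif stands 128 bases before the start of Spp1, 132 before Bglap and 80 before Runx2. The Runx2 window lies partly inside the gene span given below, so its start is not the outermost start of the gene. Spp1 had another window, without the motif. It was found in 14% of 32851 promoter windows of the same length, so its presence in a window is common. The AhR core GCGTG, present in 28.2% of all windows, and the AP-1 motif TGANTCA, present in 6.75%, were not found in the members' windows. These are letter matches within a short window and say nothing of binding.

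Spp1 (chr5:104435111-104441053) was measured by 1 probe printed 10 times on each array and was above background in both channels on all 24 arrays. Its spots differed within an array by an SD of 0.04 to 0.21 (median 0.105), less than the differences between most groups. The log ratio was -1.20 and -1.56 in double-null BP marrow and -1.32 in double-null oil marrow. It was -1.15, -0.97 and -1.51 in Cyp1a1-null BP marrow and -1.66, -1.56 and -1.54 in Cyp1a1-null oil marrow.
All 9 of these arrays lay below every WT array other than those of TCDD. Cyp1b1-null marrow was intermediate, at -0.64 and -0.61 after DMBA and -0.82 and -0.89 after oil. In WT marrow Spp1 was at -0.78 and -0.46 after BP, 0.66, 0.73 and 0.71 after DMBA and -1.68, -1.13 and -1.38 after TCDD, against -0.05, 0.04 and -0.22 after oil. The DMBA arrays were the only ones clearly above the reference, and the TCDD arrays overlapped those of Cyp1a1-null and double-null marrow.

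**Figure D1:**
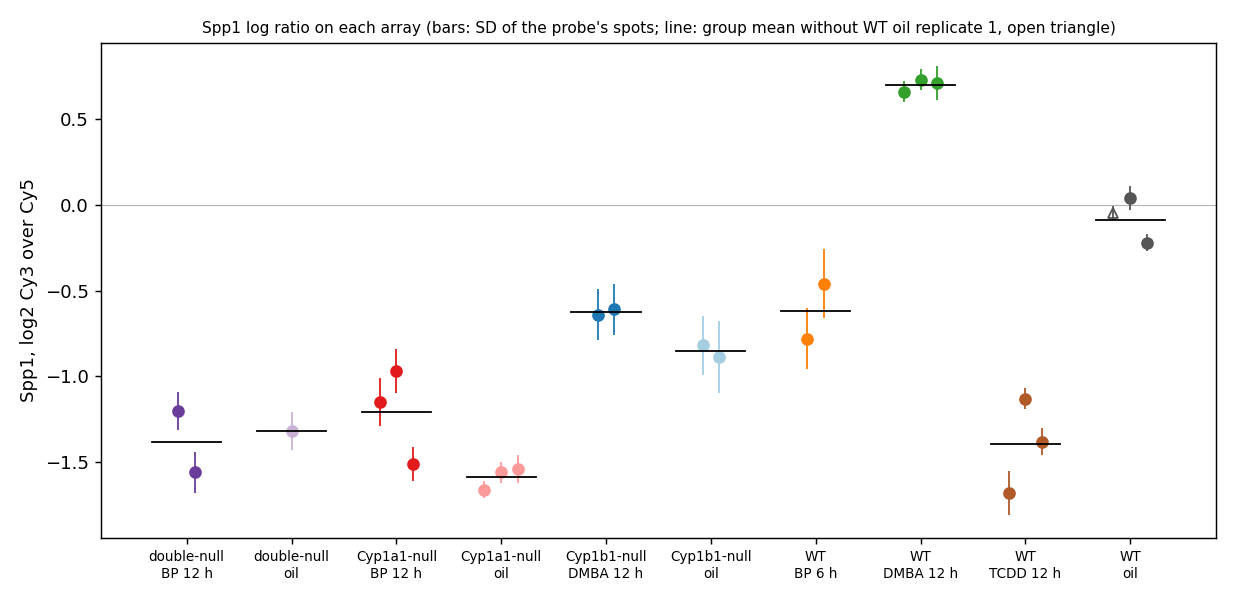
Spp1 log ratio (log2 Cy3 over Cy5, vertical axis) on each of 24 arrays by group, with bars for the SD of the 10 spots of the probe on that array and a line for the group mean without WT oil replicate 1 (open triangle). The 13 mutant arrays lie at -0.61 or below, the 3 WT DMBA arrays between 0.66 and 0.73, and the WT oil arrays between -0.22 and 0.04.

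Ordered by group mean without WT oil replicate 1, Spp1 ran from WT DMBA (0.70 ± 0.03, SD, n = 3) through WT oil (-0.09 ± 0.19, n = 2) to WT BP (-0.62 ± 0.22, n = 2) and Cyp1b1-null DMBA (-0.62 ± 0.02, n = 2). Below them came Cyp1b1-null oil (-0.86 ± 0.05, n = 2), Cyp1a1-null BP (-1.21 ± 0.27, n = 3) and double-null oil (-1.32, 1 array). The lowest were double-null BP (-1.38 ± 0.25, n = 2), WT TCDD (-1.40 ± 0.27, n = 3) and Cyp1a1-null oil (-1.59 ± 0.06, n = 3). The arrays of WT BP overlapped those of Cyp1b1-null DMBA, and from Cyp1a1-null BP downward each group overlapped the next. The other neighbours in this order did not overlap.

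Spp1 was lower in oil-treated marrow of all 3 mutant genotypes than in WT oil marrow. It fell 2.85-fold in Cyp1a1-null oil marrow (log2 change -1.51 ± 0.15, SE, limma adjusted p = 0.000252; -1.50 ± 0.17, adjusted p = 0.000104 without WT oil replicate 1). Of the 9 tested members 2 were called there, Acp5 being the other, against 3.59% of all genes (7.61% without WT oil replicate 1, where the same number of members was called). A call means a limma p adjusted over all genes by the method of Benjamini and Hochberg of under 0.05.

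In Cyp1b1-null oil marrow Spp1 fell 1.71-fold (-0.78 ± 0.17, limma adjusted p = 0.00876; -0.76 ± 0.18, adjusted p = 0.00607 without WT oil replicate 1). With either of the Cyp1b1-null oil arrays left out the change was -0.81 or -0.75 and no longer called (adjusted p = 0.0744 and 0.0988). Here 2 of 9 members were called against 15.5% of all genes, and 3 of 9 against 29.7% without WT oil replicate 1, shares that are near the background. In double-null oil marrow, a single array taken to vary like the other groups, Spp1 fell 2.37-fold (-1.25 ± 0.21, limma adjusted p = 0.00874; -1.23 ± 0.22, adjusted p = 0.00666 without WT oil replicate 1). It was the 1 called member of 9 there, against 1.53% of all genes, or 6.06% without WT oil replicate 1.

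Spp1 was 2.50-fold lower after TCDD than after oil in WT marrow (-1.32 ± 0.15, limma adjusted p = 0.00109). Without WT oil replicate 1 Spp1 changed by -1.31 ± 0.17 (limma adjusted p = 0.00198). It was the 1 called member of 9, against 2.21% of all genes, or 6.17% without WT oil replicate 1. After DMBA the log2 change against oil was 0.78 ± 0.15, with every DMBA array above every oil array, but the adjusted p was 0.198 (unadjusted p = 8.92e-05), and 0.0889 without WT oil replicate 1. With WT oil replicate 2 left out instead it was 0.84 and called (limma adjusted p = 0.0321). No member was called in this comparison, with 1 of 9 at an unadjusted p under 0.05, while 0% of all genes were called (3016 genes had an unadjusted p under 0.05). The counts were 0 of 9 members and 0.0984% of genes without WT oil replicate 1.

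Spp1 also differed between treatments of WT marrow. It was 4.28-fold higher after DMBA than after TCDD (2.10 ± 0.15, limma adjusted p = 3.99e-06), the 1 called member of 9 against 0.648% of all genes. Without WT oil replicate 1, which enters this comparison only through the shared estimate of the spread, Acp5 was called too, lower after DMBA, making 2 of 9 against 6.29%. After DMBA, Spp1 was 2.50-fold lower in Cyp1b1-null than in WT marrow (-1.32 ± 0.17, limma adjusted p = 0.00729). That was the 1 called member against 0.103% of all genes, and 1 of 9 against 1.6% without WT oil replicate 1. The call was lost when WT DMBA replicate 2, Cyp1b1-null DMBA replicate 1 or Cyp1b1-null DMBA replicate 2 was left out (limma adjusted p = 0.0589, 0.22 and 0.11, log2 changes -1.31, -1.31 and -1.34).

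The remaining treatments gave no call for Spp1. At 6 h after BP in WT marrow the log2 change against oil was -0.54 ± 0.17 (limma adjusted p = 0.144; 0.119 without WT oil replicate 1), with both BP arrays below all 3 oil arrays. None of 9 members was called there (2 had an unadjusted p under 0.05), against 0.73% of genes, or 3.88% without WT oil replicate 1. In Cyp1a1-null marrow Spp1 was 0.38 ± 0.15 higher on the log2 scale after BP than after oil (limma adjusted p = 0.245), with 0 of 9 members called (2 unadjusted) against 0.0328% of genes. Replicate 3 of that BP group, at -1.51, was hybridised on the slide of the oil arrays and lay 0.08 above their mean, and without it the change was 0.53 and called (limma adjusted p = 0.026).
In double-null marrow BP and oil differed by -0.06 ± 0.23 (limma adjusted p = 1), with 0 of 9 members called or under 0.05 unadjusted, against 0.283% of genes. In Cyp1b1-null marrow DMBA and oil differed by 0.23 ± 0.18 (limma adjusted p = 0.711), with 0 of 9 members called (1 unadjusted) against 0.0246% of genes. Double-null BP differed from Cyp1a1-null BP by -0.18 ± 0.17 (limma adjusted p = 0.755). In that comparison 0 of 9 members were called (1 unadjusted) against 0.172% of genes, and 1, Ibsp, against 3.65% without WT oil replicate 1.

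Differences between responses were tested directly. The DMBA response of Spp1 in Cyp1b1-null marrow minus that in WT marrow was -0.54 ± 0.24 on the log2 scale (limma adjusted p = 0.396; -0.56, adjusted p = 0.194 without WT oil replicate 1). The BP response in double-null minus that in Cyp1a1-null marrow was -0.44 ± 0.27 (limma adjusted p = 0.766). No member was called in either (1 and 0 of 9 unadjusted), against 0.0082% and 0.135% of all genes. The genotype comparisons above share the WT oil arrays, as do those of the WT treatments.

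The largest differences in Spp1 between groups lay mainly in the marrow channel. In Feature Extraction's processed signals, expressed relative to each array's 75th percentile, the Cy3 level of Spp1 spanned 2.71 on the log2 scale over 23 arrays (1.77 to 4.48). The Cy5 level of the common reference spanned 0.93 (3.30 to 4.23, median 3.75). The 3 WT DMBA arrays read 4.39 to 4.48 in Cy3 and 3.77 to 3.81 in Cy5, and the 3 Cyp1a1-null oil arrays 1.77 to 2.00 in Cy3 and 3.38 to 3.57 in Cy5. WT oil replicates 2 and 3 read 3.30 and 3.97 in Cy3 and the same replicates 3.30 and 4.23 in Cy5, so the oil arrays differ from each other in both channels. The WT BP arrays read 3.31 and 3.56 in Cy3, between these oil values, and 4.17 and 4.10 in Cy5.

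**Figure D2:**
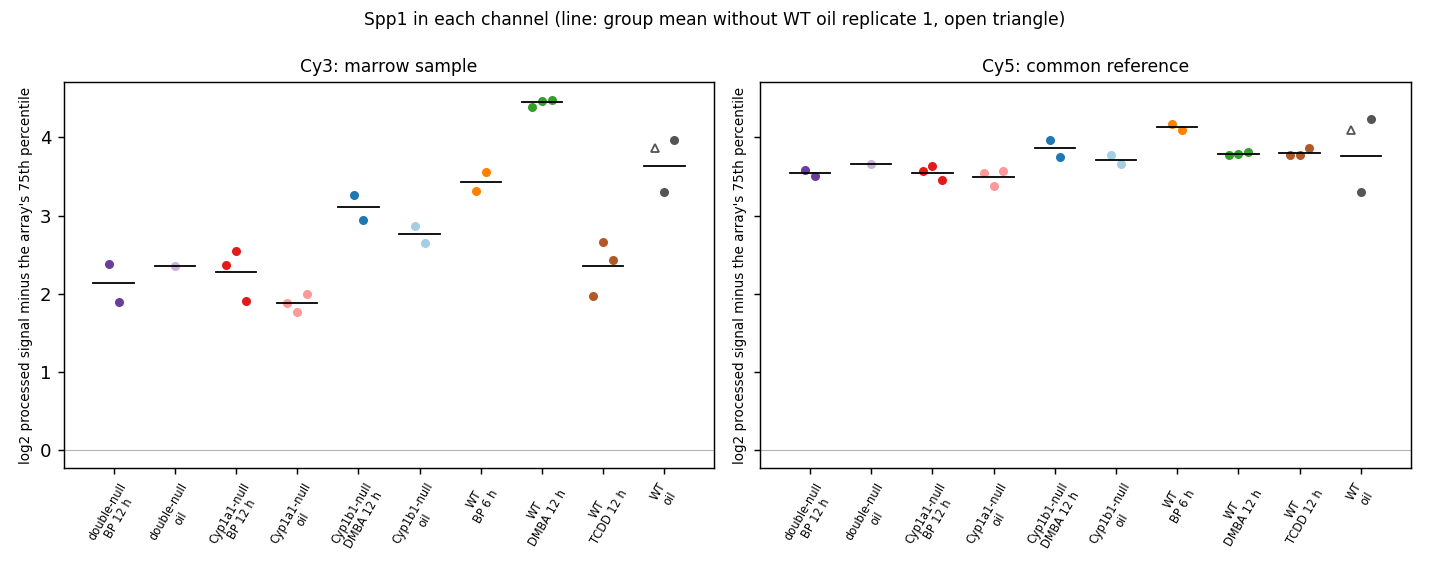
Spp1 in each channel (log2 processed signal minus the array's 75th percentile, vertical axis) by group, Cy3 marrow sample at left and Cy5 common reference at right, with a line for the group mean without WT oil replicate 1 (open triangle). Cy3 spans 1.77 to 4.48 and Cy5 3.30 to 4.23 over the 23 other arrays.

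Arrays of a group mostly shared a slide, and slide was tested as a random block (consensus correlation 0.822 over genes, 0.567 without WT oil replicate 1). All 3 Cyp1a1-null oil arrays and Cyp1a1-null BP replicate 3, the 4 arrays of slide 9, were extracted with a later version of Feature Extraction than all others, so for Cyp1a1-null oil the genotype, the slide and the software version cannot be told apart. WT BP (slide 4), WT TCDD (slide 6), Cyp1b1-null oil (slide 7) and double-null oil (slide 10) shared no slide with WT oil. WT DMBA shared none with WT TCDD or with Cyp1b1-null DMBA (slide 8). In these comparisons slide and group cannot be told apart. With slide as a block and all arrays no Spp1 call remained. The adjusted p was 0.749 for Cyp1a1-null oil against WT oil, 0.32 for Cyp1b1-null oil, 0.929 for double-null oil and 1 for TCDD, 0.717 for DMBA against TCDD and 1 for Cyp1b1-null DMBA against WT DMBA. Without WT oil replicate 1 the block gave adjusted p values of 0.0208, 0.0363, 0.0791 and 0.203 for the same comparisons, with 0.00339 for DMBA against TCDD and 0.255 for Cyp1b1-null DMBA against WT DMBA. The block left 0 of all genes called over all arrays after TCDD, in Cyp1b1-null oil, in Cyp1a1-null oil and for DMBA against TCDD, so every call of a listed gene in these comparisons, named below, was lost with it as well. Without WT oil replicate 1 the block gave 0% of genes called after TCDD, 7.68% in Cyp1b1-null oil, 0.189% in Cyp1a1-null oil and 0.0451% for DMBA against TCDD. On slide 2, which held both groups, the 2 DMBA arrays averaged 0.69 and the 1 oil array read 0.04, a difference of 0.65. Slides 3 and 5, with 1 array each, read -0.22 for WT oil and 0.71 for WT DMBA.

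Over the 23 arrays without WT oil replicate 1, the 5 genes whose log ratio followed Spp1 most closely, of 10819 genes above background on all of them, were Nck1 (r = 0.88), Cd48 (0.88), Arsa (0.87), CJ309851 (0.86) and Txndc9 (0.86). These correlations describe arrays that share slides and groups. On all 24 arrays they were 0.87, 0.70, 0.34, 0.86 and 0.81, so those of Arsa and Cd48 depended on the array left out. Like Spp1, Nck1 averaged -0.82 in Cyp1a1-null oil and -1.05 in WT TCDD, against -0.16 in WT oil, but it read 0.09 after DMBA, where Spp1 read 0.70.

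Receptors and proteases of osteopontin passed the test in no comparison over all arrays and in some with WT oil replicate 1 left out. Of 14 listed genes (Cd44, integrin chains and proteases that cleave osteopontin), all 14 were tested and none was called by limma in any of the 14 comparisons over all arrays (0 to 5 genes at an unadjusted p under 0.05). The medians of their log2 changes were 0.09 in Cyp1a1-null oil (all genes 0.01), 0.02 in Cyp1b1-null oil (all genes 0.06), 0.06 in double-null oil (all genes 0.04) and 0.02 after TCDD (all genes 0.03). Without WT oil replicate 1, Itgb5, an integrin chain, rose in Cyp1a1-null oil (0.72 ± 0.19, limma adjusted p = 0.0306; 1.42 over all arrays) and in Cyp1b1-null oil marrow (0.60 ± 0.21, adjusted p = 0.038; 1.30 over all arrays). F2, prothrombin, whose active form cleaves osteopontin, rose in Cyp1a1-null oil marrow (0.45 ± 0.13, limma adjusted p = 0.0463; 1.39 over all arrays), and Itga5, an integrin chain, fell in double-null oil marrow (-0.53 ± 0.15, adjusted p = 0.0456; -0.44 over all arrays). Itgb1 (-0.40 ± 0.11, limma adjusted p = 0.0153; 0.08 over all arrays) and the protease Mmp9 (-1.10 ± 0.40, adjusted p = 0.0489; -2.49 over all arrays) fell in Cyp1b1-null oil marrow, where 29.7% of all genes were called in this fit. Itgav, the chain that pairs with several of these to bind osteopontin, was higher after DMBA than after TCDD (0.64 ± 0.15, limma adjusted p = 0.0176).

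Macrophages also make osteopontin, and some of their markers were called in the comparisons in which Spp1 was. Of all genes 3.59% were called in Cyp1a1-null oil, 2.21% after TCDD, 15.5% in Cyp1b1-null oil and 1.53% in double-null oil. Without WT oil replicate 1 these shares were 7.61%, 6.17%, 29.7% and 6.06%. In Cyp1a1-null oil marrow 2 of 12 rose (C1qb, a complement chain, 1.21 ± 0.22, limma adjusted p = 0.011; Csf1r, the receptor of the macrophage growth factor, 0.76 ± 0.18, adjusted p = 0.0359) and 1 fell (Cd68, -0.51 ± 0.12, adjusted p = 0.0357). The log2 of the summed Cy3 signals of the 12 ran from 16.82 to 16.86, against 16.37 to 17.66 in WT oil. After TCDD C1qb rose (1.01 ± 0.22, limma adjusted p = 0.0302) and Cd68 fell (-0.54 ± 0.12, adjusted p = 0.0367), with sums of 16.34 to 16.56. After TCDD 2 of 7 megakaryocyte and platelet markers fell, Ppbp (-2.04 ± 0.40, limma adjusted p = 0.0209) and Treml1 (-1.29 ± 0.29, adjusted p = 0.0319), with sums of 12.36 to 13.32, against 12.00 to 14.05 in WT oil. In Cyp1b1-null oil marrow C1qb rose by 1.73 ± 0.24 (limma adjusted p = 0.00119) with sums of 16.73 to 17.19, and in double-null oil marrow Cd68 fell (-0.82 ± 0.17, adjusted p = 0.0287) with a sum of 16.36. With WT oil replicate 1 left out, the change of C1qb was 0.87 in Cyp1a1-null oil, 1.39 in Cyp1b1-null oil and 0.67 after TCDD, that of Csf1r 0.56 in Cyp1a1-null oil, and that of Cd68 -0.36 in Cyp1a1-null oil, -0.67 in double-null oil and -0.39 after TCDD. Of these, Cd68 and Csf1r in Cyp1a1-null oil were then no longer called, and Lyz2, lysozyme, was (1.09 ± 0.26, limma adjusted p = 0.0193; -0.09 over all arrays), making 2 of 12 higher and 0 lower. In Cyp1b1-null oil 6 of 12 were then higher and 0 lower, against 29.7% of all genes in both directions. Ppbp and Treml1 read -1.93 and -1.27 after TCDD in that fit. All 12 macrophage and all 7 megakaryocyte markers were above background on at least 1 array of the Cyp1a1-null oil, WT TCDD and WT oil groups, and their part in the Spp1 result was not tested.

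Markers of further cell types moved in the same comparisons. The share of all genes called was 15.5% in Cyp1b1-null oil (29.7% without WT oil replicate 1). In Cyp1a1-null oil it was 3.59% (7.61% without that array). In Cyp1b1-null oil marrow 3 of 7 B-lineage markers fell over all arrays, Ebf1 (-1.68 ± 0.36, limma adjusted p = 0.00898), Cd79b (-3.25 ± 0.96, adjusted p = 0.0326) and Ms4a1 (-2.37 ± 0.73, adjusted p = 0.0377), with summed Cy3 levels of 14.81 to 14.95, against 15.91 to 16.14 in WT oil. The 3 read -1.14, -1.66 and -1.20 and were still called without WT oil replicate 1. Of 9 markers of stroma and adipocytes 3 rose there, Lpl (1.43 ± 0.21, limma adjusted p = 0.00158), Fabp4 (1.79 ± 0.38, adjusted p = 0.00836) and Col3a1 (2.71 ± 0.71, adjusted p = 0.0192), with sums of 15.37 to 15.41, against 15.45 to 16.03 in WT oil.
The last 3 read 1.23, 1.56 and 1.70 and were called without WT oil replicate 1. Of 6 muscle markers tested 2 rose in Cyp1b1-null oil (Tnnc2 0.80 and Tnnt3 0.86), of 6 endothelial markers 1 rose and 1 fell (Tek 0.41, Pecam1 -0.45), of 8 erythroid markers 1 fell (Klf1 -1.45) and of 7 liver markers 1 rose (Ahsg 1.11). In Cyp1a1-null oil marrow Lpl rose (1.37 ± 0.19, limma adjusted p = 0.00233; 1.17 without WT oil replicate 1).
Erythroid markers were lower after DMBA than after TCDD, with Car1 called over all arrays (-1.55 ± 0.28, limma adjusted p = 0.0221) and 5 of 8 called without WT oil replicate 1, among them Hbb-bt (-1.43) and Hba-a1 (-1.05). The share of all genes called there was 0.648% over all arrays and 6.29% without WT oil replicate 1. The erythroid sums ran from 17.39 to 17.81 after DMBA and from 18.20 to 18.25 after TCDD. No neutrophil marker of 8 was called by limma over all arrays (0 to 4 at an unadjusted p under 0.05), and 3 were called higher in each of Cyp1a1-null oil and Cyp1b1-null oil without WT oil replicate 1, where the list's median turned to 0.84 and 0.77, against -0.87 and -0.97 over all arrays. Without that array 7.61% and 29.7% of all genes were called in these comparisons. The part of these markers in the Spp1 result was not tested.

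In the fit reported, none of the other osteoblast members was called in any comparison over all arrays. Ibsp (bone sialoprotein, a matrix protein of mineralising bone; chr5:104299287-104311472) was dim, above background on 21 of 24 arrays. The 3 missing arrays were those of WT TCDD, whose log ratios were -0.27, -0.05 and -0.60, against 0.30, -0.21 and 0.15 in WT oil. With no TCDD array above background, no fold is given for Ibsp after TCDD, whose comparisons of TCDD with oil and of DMBA with TCDD had limma adjusted p values of 0.307 and 0.619.
The level of the dimmest spots differed between arrays. Log2 Cy3 had a 5th percentile of 7.84 and 9.13 on TCDD replicates 1 and 2, and 8.17 and 8.73 on the Cyp1b1-null DMBA arrays, against 5.82 to 6.65 on the other arrays, so log ratios of dim genes are compressed there. In the processed signals 2 of 9 members were called after TCDD over all arrays, against 3.36% of all genes, and 4 of 9 without WT oil replicate 1, against 12% of all genes. In the second of these fits Spp1 fell (-1.33 ± 0.20, limma adjusted p = 0.00372), as did Ctsk (-1.89 ± 0.58, adjusted p = 0.0471) and Ibsp (adjusted p = 0.0145), and Oscar rose (1.53 ± 0.42, adjusted p = 0.0319).

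Among the null genotypes Ibsp was lowest in double-null BP marrow, at -0.43 and -0.36, against 0.16, 0.89 and 0.45 in Cyp1a1-null BP marrow. The arrays of these groups did not overlap, with a difference of -0.89 ± 0.24 (limma adjusted p = 0.164; 0.0447 without WT oil replicate 1; 0.845 with slide as a block as well). Double-null oil read -0.07, Cyp1a1-null oil 0.38, 0.32 and -0.15, and the Cyp1b1-null groups between -0.21 and 0.04.

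Bglap (osteocalcin, a matrix protein of mature osteoblasts; chr3:88383495-88384466) varied widely within groups. Mouse has near-identical neighbouring copies of this gene, so the probe may read more than 1 of them. It was 1.63 and 0.71 in WT BP marrow, against 0.50, 0.67 and 0.42 in WT oil, and -0.45, 1.63 and -0.50 in Cyp1a1-null BP marrow, against -0.42 to 0.72 in Cyp1a1-null oil. Replicate 2 of Cyp1a1-null BP stood far above its replicates in Bglap, and the same array read 0.82 in Ctsk, where replicates 1 and 3 read -0.39 and -0.48.

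Alpl (tissue-nonspecific alkaline phosphatase, which frees phosphate for mineral; chr4:137741731-137796384) was bright and varied little. It lay between -0.05 and 0.86 on the 23 arrays without WT oil replicate 1, which read -0.76, and the other oil arrays read 0.51 and 0.40. Both WT BP arrays were the highest of WT marrow, at 0.86 and 0.70. In Cy3 alone Alpl was lower after TCDD (-1.31, limma adjusted p = 0.00863) and in Cyp1b1-null oil marrow (-1.73, adjusted p = 0.00922), against 0.20 and 0.22 as log ratios over the reference, so no direction is given for it.

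Runx2 (the master transcription factor of osteoblasts; chr17:44495987-44814797) had 4 probes. The brightest, printed 10 times, read 2.65 on WT oil replicate 1, against -0.02 and -0.18 on the other oil arrays and -0.40 to 0.68 over the 23 other arrays. A second probe, to which the array's annotation gives the same accession, read 1.97 on that array. The 2 others, annotated with another accession and below background there, read 0.05 and -0.06. The direction in Cyp1b1-null oil marrow therefore turned with 1 array: it was -0.27 over all arrays (limma adjusted p = 0.772) and 0.65 ± 0.24 without WT oil replicate 1 (adjusted p = 0.0481), from arrays at 0.62 and 0.47. The second probe read 0.07 and 0.13 on those Cyp1b1-null oil arrays.

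**Figure D3:**
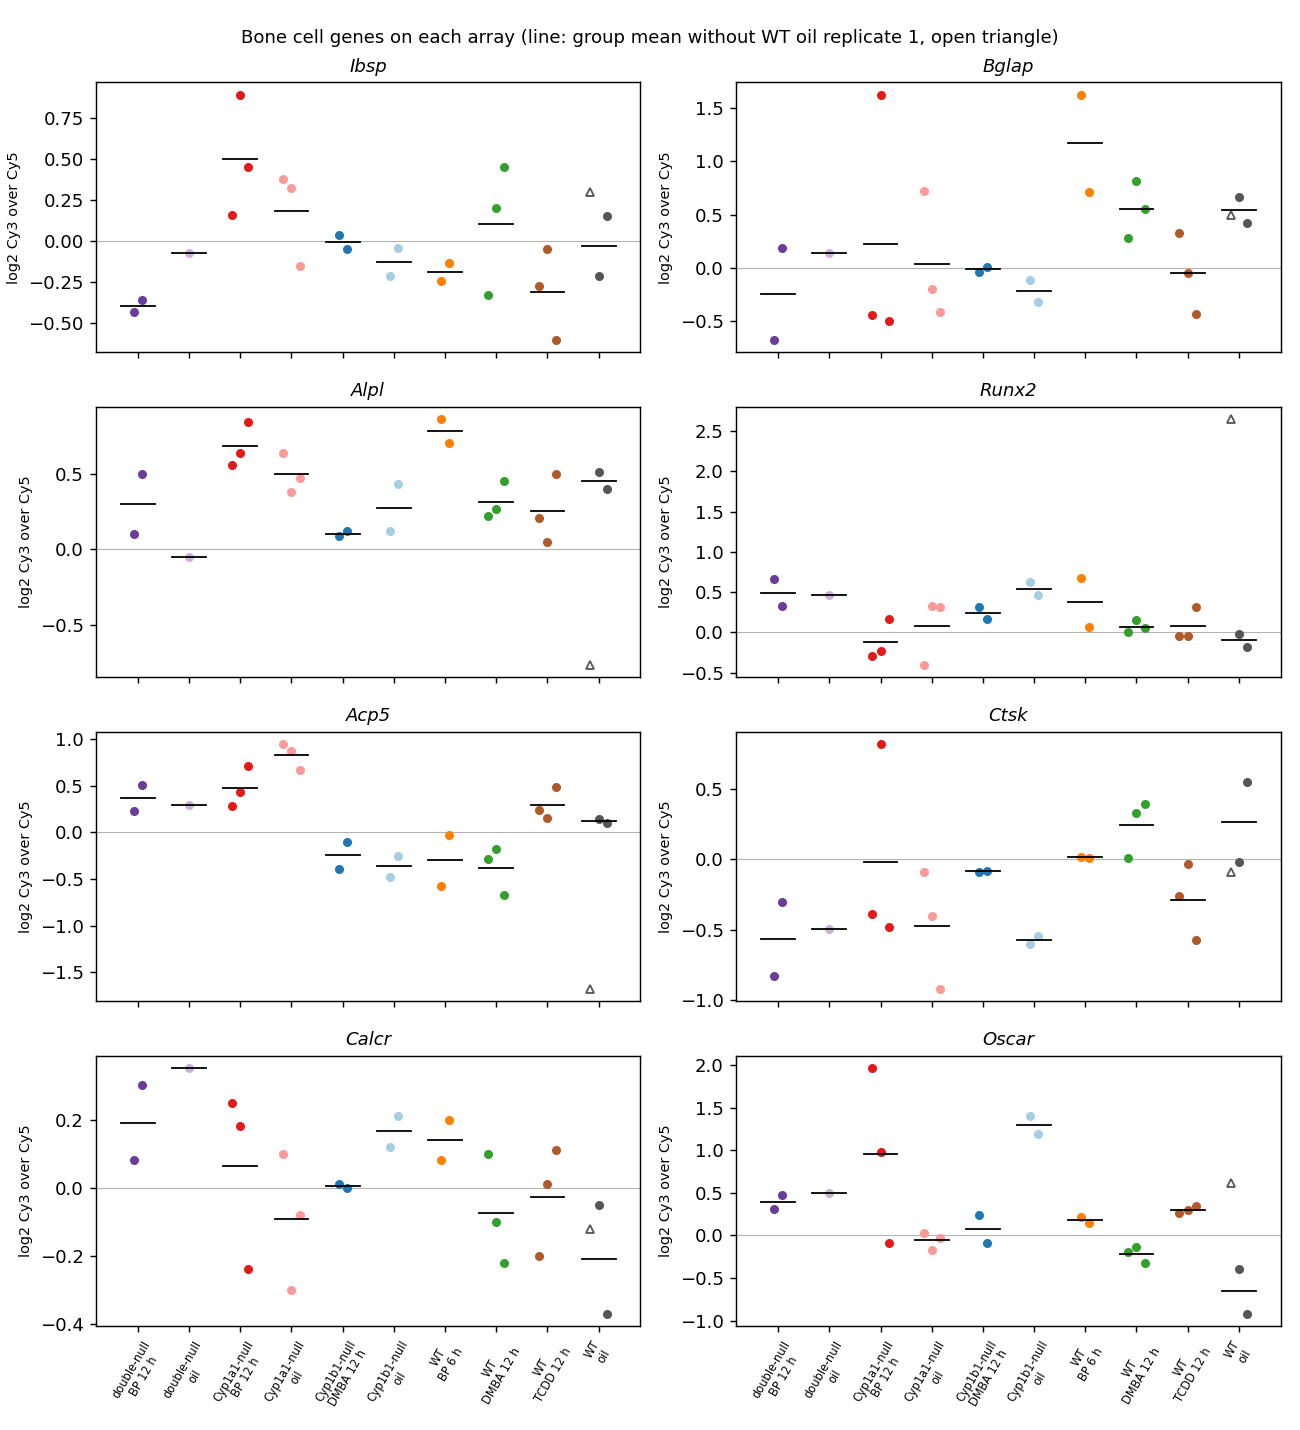
Log ratios (log2 Cy3 over Cy5, vertical axes, scaled per gene) of the 8 other tested members on each array by group, with a line for the group mean without WT oil replicate 1 (open triangle). Runx2, Alpl and Acp5 each have their most extreme value on WT oil replicate 1, at 2.65, -0.76 and -1.68.

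Of 26 further osteoblast and matrix genes 23 were tested, and 3 rose and 1 fell in Cyp1b1-null oil marrow, a share near the 15.5% of all genes called there. Their median change was 0.35 (all genes 0.06), and 0.20 without WT oil replicate 1. Bmp4, a bone-inducing growth factor (1.09 ± 0.21, limma adjusted p = 0.00563), and Dlx5, a homeobox factor of osteoblasts (1.38 ± 0.39, adjusted p = 0.0265), rose, and Atf4, a factor of amino acid stress and of osteoblasts (-1.31 ± 0.27, adjusted p = 0.00719), fell. Leaving out WT oil replicate 1 gave 5 higher and 1 lower of 23, against 29.7% of all genes, with Bmp4 at 0.98, Dlx5 at 1.90 and Atf4 at -0.87. None of the 23 was called by limma over all arrays in the other 13 comparisons (0 to 6 genes at an unadjusted p under 0.05). The list's median was 0.01 in Cyp1a1-null oil (all genes 0.01), 0.14 in double-null oil (all genes 0.04) and 0.11 after TCDD (all genes 0.03), the groups in which Spp1 fell. The log2 of their summed Cy3 signals was 13.46 to 13.94 in Cyp1a1-null oil and 13.55 to 13.60 after TCDD, against 13.46 to 13.79 in WT oil.
Without WT oil replicate 1, Vdr, the vitamin D receptor, rose at 6 h after BP in WT marrow (1.00 ± 0.15, limma adjusted p = 0.00212). In the same fit Dlx5 had a lower log ratio after DMBA than after oil in Cyp1b1-null marrow (-1.55 ± 0.27, limma adjusted p = 0.00486), where 7.52% of all genes were called. Its log2 Cy3 averaged 8.3 over the arrays, near the 5th percentiles of the Cyp1b1-null DMBA arrays (8.17 and 8.73). Log ratios of dim genes are compressed on those arrays, so this change cannot show whether Dlx5 fell. Cartilage markers gave 1 call, Col2a1, a cartilage collagen, higher in Cyp1b1-null oil marrow (2.21 ± 0.62, limma adjusted p = 0.0261; 2.90, adjusted p = 0.00153 without WT oil replicate 1).

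Acp5 (tartrate-resistant acid phosphatase, the classical enzyme marker of osteoclasts, also in macrophages; chr9:22126727-22135746) ran opposite to Spp1 in several groups. It read 0.95, 0.87 and 0.67 in Cyp1a1-null oil marrow, against -1.68, 0.14 and 0.10 in WT oil. Every Cyp1a1-null oil array was above every WT oil array, and Acp5 rose 2.48-fold (1.31 ± 0.34, limma adjusted p = 0.044). The change was 0.71 ± 0.18 (adjusted p = 0.0287) without WT oil replicate 1. Leaving out Cyp1a1-null oil replicate 1, 2 or 3 ended the call (limma adjusted p = 0.1, 0.133 and 0.116), as did the processed signals (1.37, adjusted p = 0.14) and slide as a block (adjusted p = 0.749 with all arrays, 0.245 without WT oil replicate 1).
Slide moved with this result. All 4 arrays of slide 9 read 0.67 to 0.95, and the other 19 arrays, WT oil replicate 1 left out, -0.67 to 0.51. One of these 4 was Cyp1a1-null BP replicate 3 (0.71), whose replicates on slide 7 read 0.28 and 0.43. Within slide 9 BP and oil differed by -0.12.

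After DMBA Acp5 read -0.28, -0.18 and -0.67, against 0.24, 0.16 and 0.49 after TCDD, with no overlap. The difference was -0.67 ± 0.34 (limma adjusted p = 0.597), and -0.67 ± 0.17 (adjusted p = 0.0218) without WT oil replicate 1. Acp5 was negative on all 4 Cyp1b1-null arrays (-0.48 to -0.10) and positive on the 6 Cyp1a1-null (0.28 to 0.95) and 3 double-null arrays (0.23 to 0.51). Over 23 arrays its correlation with Spp1 was -0.70, a description of arrays that share groups and slides.

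Oscar (an immunoglobulin-like receptor of osteoclasts and myeloid cells that binds collagen; chr7:3609813-3616157) had high log ratios in Cyp1b1-null oil marrow, at 1.40 and 1.19, against 0.62, -0.39 and -0.92 in WT oil. It rose 2.88-fold (1.53 ± 0.42, limma adjusted p = 0.0251), and by 1.95 ± 0.38 without WT oil replicate 1 (adjusted p = 0.00224). The call was lost without WT oil replicate 3 (1.18, limma adjusted p = 0.0659) or without Cyp1b1-null oil replicate 1 or 2 (1.42 and 1.63, adjusted p = 0.162 and 0.13). With slide as a block the adjusted p was 0.578, and 0.0473 without WT oil replicate 1. Relative to each array's 75th percentile of processed signals, Oscar spanned 3.07 in Cy3 and 3.12 in Cy5, WT oil replicate 1 left out. The Cyp1b1-null oil arrays read -0.11 and -0.15 in Cy3, below WT TCDD (0.14 to 0.47), and -1.76 and -1.37 in Cy5. WT oil replicates 2 and 3 read -0.69 and -2.30 in Cy3 and -0.29 and -0.98 in Cy5. The high ratios therefore reflect the reference channel as well as the marrow.
Here slide 7 moved with the result: its 4 arrays, the 2 of Cyp1b1-null oil and 2 of Cyp1a1-null BP, read 0.98 to 1.96, against -0.92 to 0.50 on the 19 other arrays, WT oil replicate 1 left out. Cyp1a1-null BP replicate 3, on slide 9, read -0.09, and the Cyp1a1-null oil arrays on that slide 0.03, -0.17 and -0.03. Over all arrays Oscar was 1.01 ± 0.38 higher after BP than after oil in Cyp1a1-null marrow (limma adjusted p = 0.227), and 1.53 without replicate 3 (adjusted p = 0.00452), while within slide 9 the difference was -0.03.
In the processed signals Oscar was 1.61 higher in Cyp1b1-null oil marrow over all arrays and not called (limma adjusted p = 0.0609), and it rose by 2.27 ± 0.46 without WT oil replicate 1 (adjusted p = 0.00402). That made 3 of 9 members called in the second fit, with Spp1 (-0.84 ± 0.22, adjusted p = 0.0103) and Ctsk (-1.89 ± 0.64, adjusted p = 0.0344), against 30.9% of all genes.

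**Figure D4:**
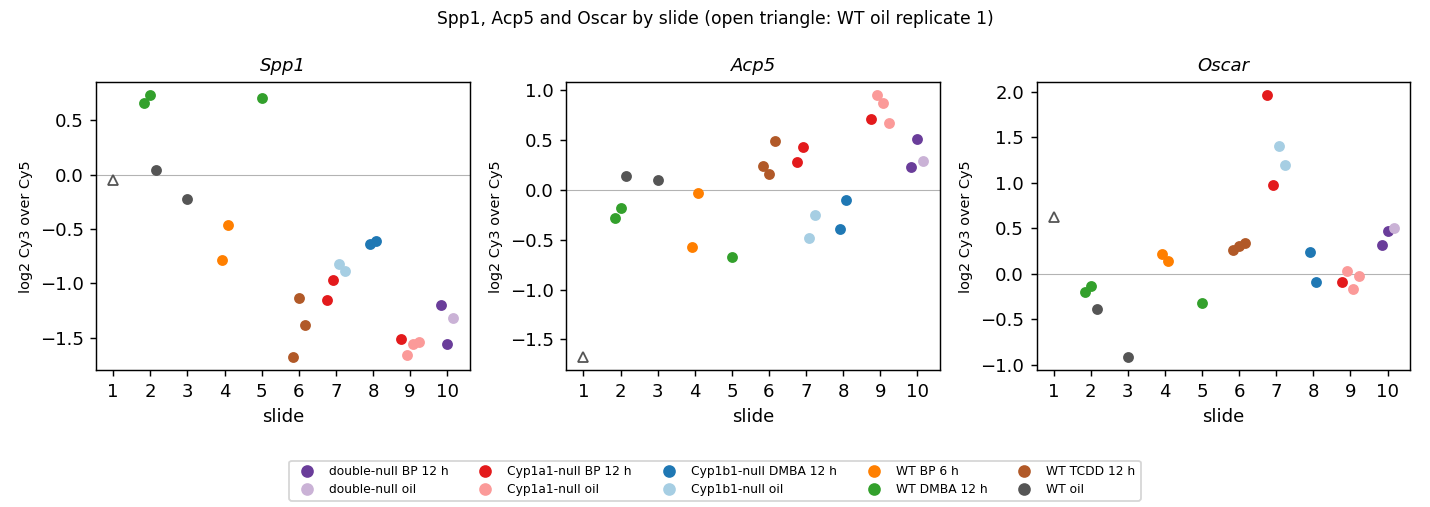
Log ratios (log2 Cy3 over Cy5, vertical axes) of Spp1, Acp5 and Oscar on each array, by slide (1 to 10, horizontal axes) and coloured by group, with WT oil replicate 1 as an open triangle. The 4 arrays of slide 9 are the highest in Acp5 (0.67 to 0.95) and the 4 of slide 7 the highest in Oscar (0.98 to 1.96).

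Ctsk (cathepsin K, the osteoclast protease that digests collagen; chr3:95499210-95509387) was dim, above background on 22 of 24 arrays and on 1 of 3 after TCDD. It read -0.60 and -0.54 in Cyp1b1-null oil, -0.09, -0.40 and -0.92 in Cyp1a1-null oil and -0.49 in double-null oil, against -0.09, -0.02 and 0.55 in WT oil. The Cyp1b1-null arrays lay below every WT oil array, with a change of -0.72 ± 0.33 that was not called (limma adjusted p = 0.145; 0.0792 without WT oil replicate 1). Of the other members Ctsk followed Bglap most closely (r = 0.78 over 23 arrays), then Spp1 (0.58) and Ibsp (0.56).

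Calcr (the calcitonin receptor, through which the hormone restrains osteoclasts; chr6:3685678-3764713) was near background, above it on 17 of 24 arrays and on none of the 3 double-null arrays. Its log ratios lay between -0.37 and 0.35 on all arrays and no change was called. Atp6v0d2 (a subunit of the osteoclast proton pump; chr4:19876838-19922566) gave adjusted p values of 0.365 to 1 over the 14 comparisons when the filter was lifted.

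Of 21 further osteoclast genes 20 were tested, and few were called. Atp6v1b2, another proton pump subunit, fell after TCDD (-0.62 ± 0.13, limma adjusted p = 0.0316) and in Cyp1b1-null oil marrow (-0.66 ± 0.15, adjusted p = 0.0109). Csf1r rose in Cyp1b1-null oil (0.66 ± 0.21, limma adjusted p = 0.0408) and, as above, in Cyp1a1-null oil marrow. Traf6, an adaptor of the RANK receptor, fell in Cyp1b1-null oil marrow (-0.73 ± 0.20, limma adjusted p = 0.0212). Leaving out WT oil replicate 1, the change of Atp6v1b2 was -0.67 after TCDD and -0.72 in Cyp1b1-null oil, and those of Csf1r and Traf6 were 0.46 and -0.57 in Cyp1b1-null oil, where 3 of the 20 were then called higher and 3 lower, near the 29.7% of all genes. Over all arrays 1 was higher and 2 lower there, near the 15.5% of all genes. The list's median was -0.07 in Cyp1a1-null oil (all genes 0.01), -0.37 in double-null oil (all genes 0.04) and -0.37 after TCDD (all genes 0.03). Without WT oil replicate 1 those medians were 0.18, -0.06 and -0.16.
In that fit Tyrobp, a signalling adaptor of myeloid cells (0.97 ± 0.22, limma adjusted p = 0.015), and Fos, an AP-1 subunit needed for osteoclasts (1.62 ± 0.40, adjusted p = 0.0223), were higher after DMBA than after TCDD.

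Over all arrays the median log2 change of the 9 tested members was 0.09 in Cyp1a1-null oil marrow, -0.21 in Cyp1b1-null oil, -0.15 in double-null oil and -0.39 after TCDD. The median of all genes in the same comparisons was 0.01, 0.06, 0.04 and 0.03. The members' medians were 0.12, -0.18, -0.04 and -0.20 without WT oil replicate 1. Spp1 was the only member called in more than 1 comparison over all arrays, and it was called in 6 of 14.

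**Figure D5:**
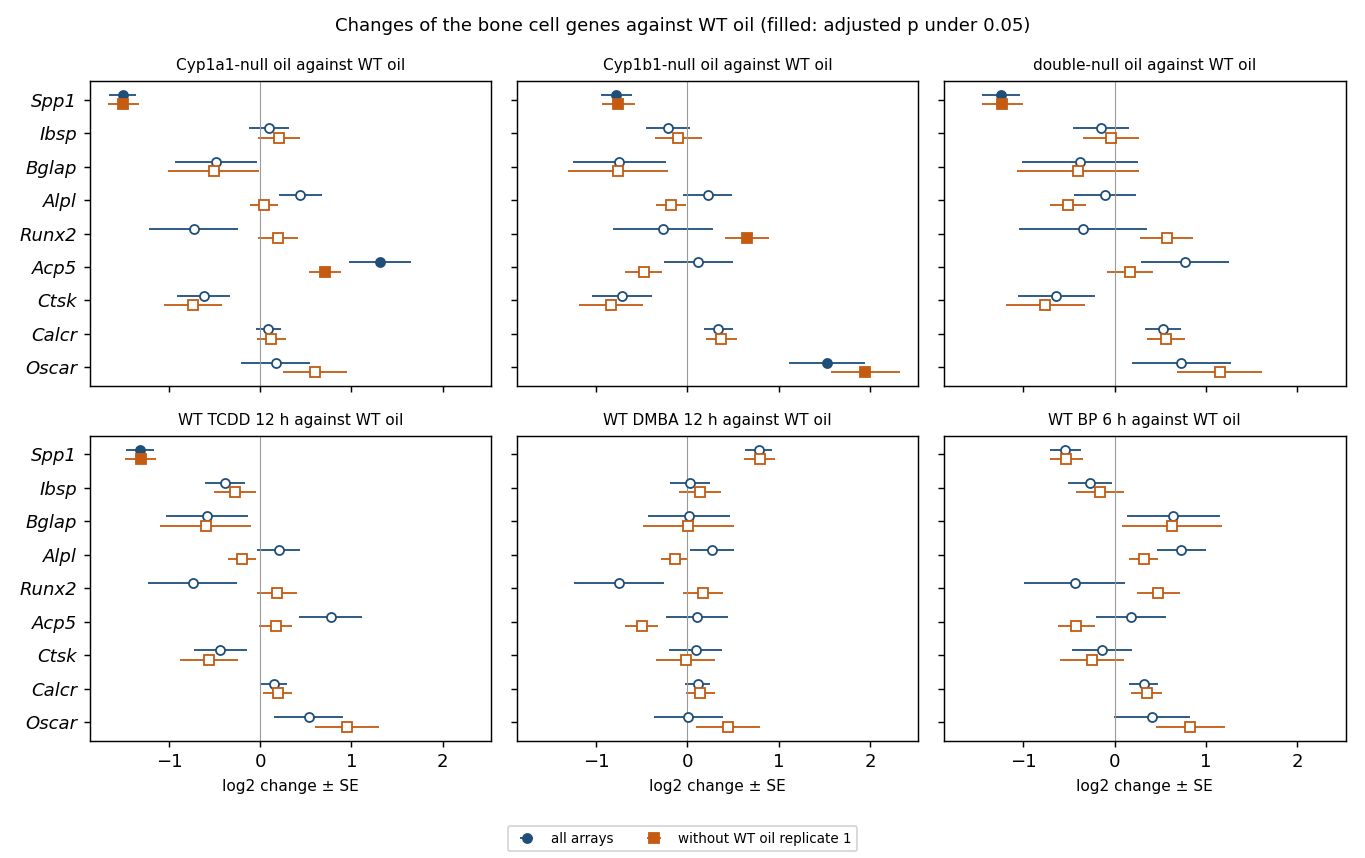
Log2 changes with their SE (horizontal axes) of the 9 tested members in 6 comparisons against WT oil, with all arrays (circles) and without WT oil replicate 1 (squares), filled where the limma adjusted p was under 0.05. Spp1 is filled in both fits in 4 of the 6 panels, at -1.51, -0.78, -1.25 and -1.32 over all arrays, and Runx2 and Acp5 shift between the fits. Ibsp after TCDD and Calcr in double-null oil were not well above background.

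The authors' deposited table of group differences gave the same direction for Spp1. In it Spp1, as the mean of its 10 spots, was -1.67 in Cyp1a1-null oil, -1.01 in Cyp1b1-null oil and -1.36 in double-null oil against WT oil. In the authors' deposited table it was -1.50 after TCDD, 0.61 after DMBA and -0.76 after BP. For Ibsp after TCDD the authors' deposited table gave -2.54, and for Ctsk -2.0 after TCDD and -2.01 in Cyp1b1-null oil. For Oscar in Cyp1b1-null oil the authors' deposited table gave 2.33, and for Acp5 in Cyp1a1-null oil 0.81. Those comparisons of the authors' deposited table that leave out WT oil followed differences of the processed log ratios of the arrays (r = 0.992, 0.987 and 0.752 over features). The last, double-null BP against oil, was followed less closely, with 69.8% of features within 0.02, against 83.5% and 84.4%. In the 6 against WT oil, WT oil replicate 1 as deposited had a fitted weight of 0 to 0.03. Leaving that array out of the processed signals did not give the authors' values either. Spp1 then changed by -1.50 in Cyp1a1-null oil and -1.33 after TCDD, against -1.67 and -1.50. The authors' deposited table therefore appears to rest on other values for WT oil, and which ones was not tested.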

How the data were processed

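Mouse marrow RNA was measured on 24 Agilent two-colour arrays. Per the file headers, the deposited scanner files hold mean and local background intensity for each spot and channel, and a processed intensity, corrected by Feature Extraction for background and dye. The authors' deposited table holds log2 differences between groups, and limma is named in the submitters' processing notes. Here the mean intensities were background-corrected (normexp, offset 50) and loess-normalized within each array, control and flagged spots having no weight. Spots of a probe were averaged, the brightest probe of a gene was used, and Cy3 had to be well above background on 3 arrays. Names came from the RefSeq table for 24844 probes by accession, 6045 by symbol and 1810 by synonym, and 8475 kept the file's name. One model of 10 group means was fitted over 24 arrays (limma 3.58.1, R 4.3.3, statmod 1.5.0), with Benjamini-Hochberg adjustment over all genes and 14 comparisons.

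Named genes were the members, the targeted genes, the 5 genes most like Spp1 and, in each list, up to 3 called genes with the smallest adjusted p in a comparison, plus any going the other way. The members and lists were chosen with earlier results of these data known. The alternatives were other background corrections, filters, scalings and variance priors, the mean of probes, Cy3 alone, slide or replicate number as a block, only the groups compared, and leaving out single arrays. The labels do not say whether the pools of a group are of separate animals' tissue, so p-values measure the spread between these arrays, whose number limits the precision. The fitting steps were tested on simulated data.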

Additional observations from a re-analysis of the deposited data

How the results depend on the processing

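Spp1 kept its direction wherever it was called. With slide as a random block its calls were lost after TCDD (-1.34), in Cyp1b1-null oil (-0.99), Cyp1a1-null oil (-1.34) and double-null oil (-1.27), for DMBA against TCDD (2.03) and for DMBA in Cyp1b1-null against WT (-1.26), and without WT oil replicate 1 still after TCDD (-1.32), in double-null oil (-1.25) and for DMBA in Cyp1b1-null against WT (adjusted p = 0.255). Fits of only the groups compared lost TCDD (-1.32), Cyp1b1-null oil (-0.78), Cyp1a1-null oil (-1.51) and double-null oil (-1.25) and called DMBA against oil in Cyp1b1-null marrow (0.23). Double-null oil was lost with no background subtraction (-1.21), processed signals (-1.15) and Cy3 alone (-1.35). In Cy3 alone Alpl turned to -1.31 after TCDD and -1.73 in Cyp1b1-null oil, and Runx2 turned to 0.65 in Cyp1b1-null oil without WT oil replicate 1 (-0.77 without replicate 3). The cause was not tested.

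Members called of 9 are given with the share of all genes called in the same fit. After TCDD (1 in the fit reported) there were 2 with no background subtraction (5.71%), 2 with processed signals (3.36%), 5 in Cy3 alone (13.7%) and, without WT oil replicate 1, 4 with processed signals (12%). The slide block, with or without that array, and the fit of only the groups compared gave 0 (0%). In Cyp1b1-null oil (2) there was 1 with processed signals (13.6%), and 0 with the block or only the groups compared (0% in both). In Cyp1a1-null oil (2) there was 1 with no background subtraction (0.492%), 1 with processed signals (0.205%), 0 with the block or only the groups compared (0% in both) and, without WT oil replicate 1, 1 with processed signals (0.96%) and 1 with the block (0.189%). In double-null oil (1) there were 0 with no background subtraction (0.164%), processed signals (0.234%), Cy3 alone (0.394%), the block (0.0697%, and 0.324% without WT oil replicate 1) and only the groups compared (0%). DMBA against TCDD (1) gave 2 with no background subtraction (2.51%), 5 in Cy3 alone (24.5%), 0 with the block (0%) and 3 with only the groups compared (7.91%). DMBA in Cyp1b1-null against WT (1) gave 4 in Cy3 alone (20.6%) and 0 with the block (0%), and DMBA against oil in Cyp1b1-null marrow (0) gave 3 with only the groups compared (34.5%).

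Leaving out 1 array at a time, Spp1 ranged from 0.70 to 0.84 for DMBA in WT, from -0.85 to -0.72 in Cyp1b1-null oil, from 0.26 to 0.53 for BP in Cyp1a1-null, from -0.24 to 0.12 for BP in double-null, from -1.34 to -1.31 for DMBA in Cyp1b1-null against WT and from -0.36 to 0 for BP in double-null against Cyp1a1-null marrow. Member counts that moved are given with the share of all genes called, for fits that left more than 1 array in the reduced group. Leaving out a Cyp1b1-null array leaves 1 in its group. The Spp1 and Oscar calls in Cyp1b1-null oil and the Spp1 call for DMBA in Cyp1b1-null against WT were then lost, as given above. For DMBA in WT 1 was called (3.47%) and after TCDD 2 (17.8%), each without WT oil replicate 2. In Cyp1b1-null oil there were 3 (29.7%) without WT oil replicate 1 and 1 (16.4%) without replicate 3. In Cyp1a1-null oil 1 was called without Cyp1a1-null oil replicate 1, 2 or 3 (2.09%, 0.484% and 0.484%). For BP in Cyp1a1-null 2 were called (14.8%) without BP replicate 3. For DMBA in Cyp1b1-null against WT 0 were called (0%) without WT DMBA replicate 2. The single double-null oil array could not be left out. Same-numbered replicates did not deviate together (82 pairs, r from -0.25 to 0.34, median 0.02), so they share only a number. With the replicate block Spp1 was -1.32 after TCDD, -0.82 in Cyp1b1-null oil, -1.51 in Cyp1a1-null oil, -1.24 in double-null oil, 0.78 for DMBA, -0.58 for BP and 2.10 for DMBA against TCDD, and no call of Spp1 changed. Dim genes (Ibsp, Ctsk, Calcr, Atp6v0d2) are limited by signal near background.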
